A study of Mus musculus with 185 samples.

Results

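The comparison described here set mice that had gone without food for 24 h against mice with free access to chow, with the RNA-seq counts of the brain regions of each mouse added up so that 1 mouse gave 1 profile. It held 17 of the 37 mice of the series, 8 on chow and 9 fasted. The mice of both groups were males of the inbred strain C57BL/6J, 8 weeks old, housed singly after 3 days of acclimation, and food was taken away or left in place in the morning. The dissected regions were the hypothalamus (both hemispheres per the labels) and, on the left, the zona incerta, the hippocampus and both colliculi, inferior and superior. The headings of the count matrix name the mouse of a column but not its region, which is why the 5 columns of a mouse were summed. A pair of further mice, 1423 on chow and 1454 in the fasted group, had tubes that were exchanged during handling and were left out. The 6 chow and 6 fasted mice of the 16 h study of the same series were used only for the comparison of the 2 studies given last.

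Fasting lowers circulating insulin and leptin and raises glucocorticoids, which in mice means corticosterone. Corticosterone enters the brain and binds the glucocorticoid and mineralocorticoid receptors, which act on genes directly. Neurons go on using glucose, joined by ketone bodies made in the liver, while astrocytes, oligodendrocytes and the endothelium of the blood-brain barrier handle the fuel, the lipids and the transport. The question of the comparison was which protein-coding genes and pathways of the brain differ after a fast of this length.

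Fasted mice lost weight. Relative to its start, the weight of the 8 chow mice changed by a mean of 0.849% (SD 1.25), and that of the 9 fasted mice by a mean of -19.2% (SD 1.21), with no overlap. The difference of -20.1 percentage points had a two-sided exact permutation p of 8.23e-05, the smallest these group sizes allow. Chow mice ate 3.96 ± 0.484 g of food (SD, n = 8).

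The summed profiles held 72525035 to 148362583 counts in chow mice and 57962237 to 161577364 in fasted mice. The mitochondrial genome took 8.57 to 16.7% of the counts on chow and 9.35 to 12.2% after fasting. Of the 85 columns, 21 fell under 1000000 counts or under 16000 genes expected in a draw of 500000 counts, 10 of 40 on chow and 11 of 45 in the fasted group. Per the labels, 23 libraries of these mice, 11 on chow and 12 fasted, failed the authors' criterion for alignment and 4 more did not pass on their position in a principal component analysis. These libraries come from different regions in different mice. The superior colliculus library failed alignment in chow mouse 1422 and in fasted mice 1424, 1433, 1434 and 1435. This region was thus lost unevenly between the diets. The headings do not show which columns are the failed libraries, so their counts are part of the sums here, and the sums weight the regions by depth. On the first principal component, 17.1% of the variance, chow mice lay between -51.3 and 2.7 and fasted mice between -3.2 and 48.2. The fasted mouse 1445 stood apart on the second component at -80.7.

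Of 21664 protein-coding genes in the matrix, 16543 had enough counts for a test, and of these 1111 (6.72%) were higher and 897 (5.42%) were lower in fasted mice at an adjusted p under 0.05 (edgeR quasi-likelihood test, Benjamini-Hochberg over all 28824 genes tested). These 2008 genes are said below to have risen or fallen. Most changes were small. The median log2 fold change was 0.37 among the genes that rose and -0.47 among those that fell, against 0.0185 over all protein-coding genes tested. Larger changes were mostly increases: 31 genes rose and 4 fell by more than 2 on the log2 scale. The levels of the groups did not overlap for 519 genes (3.14%), 347 of them higher and the rest lower, and all of these were called. With the mice of the exchanged tubes included 1327 rose and 1079 fell, without the low columns 1198 and 989, and with mouse 1455, whose superior colliculus read file names another mouse, also left out 1062 and 831. Among long non-coding RNAs 187 of 5464 rose and 281 fell.

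**Figure D1:**
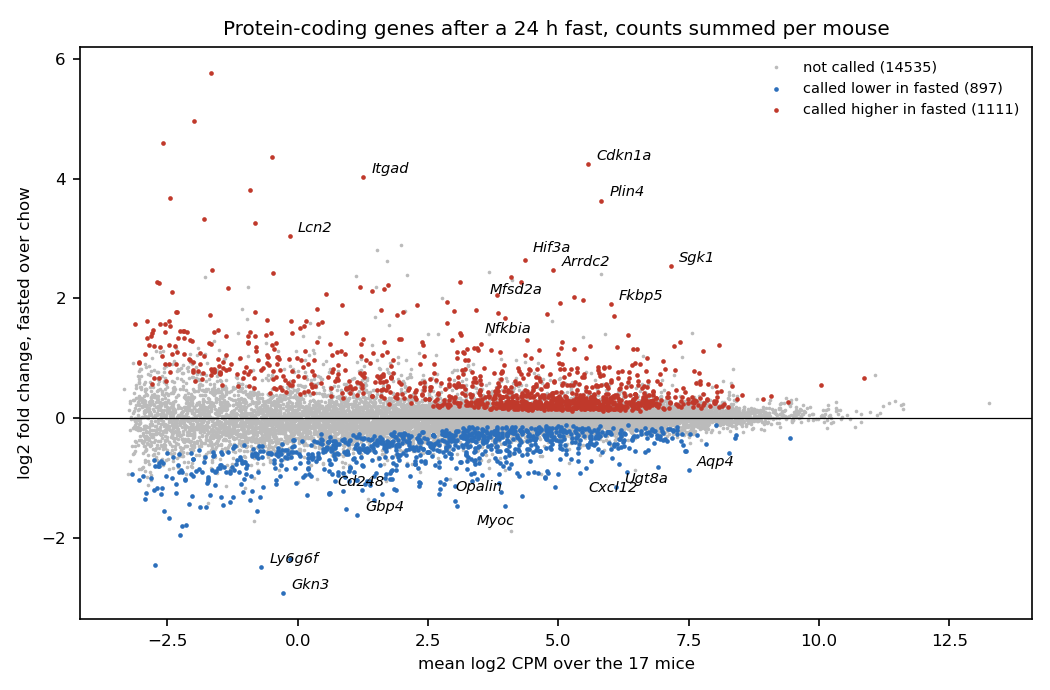
Each point is a protein-coding gene, with its mean log2 CPM, the counts per 1000000 counts of a mouse, over the 17 mice on the x axis and its log2 fold change, fasted over chow, on the y axis. Genes called higher (1111) are red, genes called lower (897) blue and the rest grey. Cdkn1a, Plin4 and Itgad lie far above the bulk of the genes, and Gkn3 and Ly6g6f lie lowest among the labelled genes that fell.

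Increases and decreases were spread differently over expression levels. When the 16543 genes were split into 5 sets of equal size by their mean level, decreases made up 8.89% of the second lowest set and 2.30% of the highest, and increases 5.23% of the second lowest and 8.77% of the second highest. Every autosome held genes of both kinds. Shares of genes that rose ran up to 9.40% on chromosome 8, and on the X chromosome 3.83% of 600 genes rose and 3.83% fell.

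The largest increase among protein-coding genes whose log2 CPM averaged 1 or more was that of Cdkn1a (ENSMUSG00000023067, GRCm39 chr17:29309936-29319701), which codes for the cell cycle inhibitor p21. It lay between 3.58 and 5.44 CPM in chow mice, with a median of 4.66, and between 35.8 and 133.9 CPM in fasted mice, with a median of 86.0. The lowest fasted mouse was thus far above the highest chow mouse, and the log2 fold change was 4.24 ± 0.23 (SE, edgeR adjusted p = 1.09e-09). Itgad, the integrin alpha D subunit, a leukocyte adhesion receptor chain, followed at 0.213 to 0.356 CPM on chow (median 0.243) and 2.204 to 5.88 CPM after fasting (median 4.06), a log2 fold change of 4.02 ± 0.18. Plin4 (ENSMUSG00000002831, GRCm39 chr17:56406617-56416931), a perilipin that coats lipid droplets, had the smallest p of all protein-coding genes. Its level was 6.33 to 9.07 CPM on chow (median 8.15) and 66.3 to 125 CPM after fasting (median 98.7), a log2 fold change of 3.63 ± 0.12 (edgeR adjusted p = 1.29e-12). Hif3a, a member of the hypoxia-inducible factor family, rose by 2.64 on the log2 scale, from 3.70 to 6.88 CPM on chow (median 5.48) to 25.8 to 41.6 CPM after fasting (median 33.7).

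Further genes with the largest increases and no overlap between the groups have varied roles. Arl4d, a small GTPase, rose by 2.35 on the log2 scale, Maff, a small Maf transcription factor, by 2.23, Il12rb1, a receptor chain of interleukin 12, by 2.12, Fam83d by 2.19 and Tekt4, a tektin of cilia and flagella, by 2.16. Phyhd1 was among the genes with the smallest p values. It lay at 1.49 to 1.91 CPM on chow (median 1.67) and 4.60 to 6.61 CPM after fasting (median 5.45), a narrow spread in either group for a low level. Sgk3, a kinase related to Sgk1, rose by 2.02 from 13.6 to 17.2 CPM (median 14.6) to 20.7 to 87.8 CPM (median 64.3). Sgk3 overlaps Snhg6 and other genes on the opposite strand, and the strand setting of the counts is not given in the sources used here, so reads of the pair cannot be told apart. The same limit holds for Plin4 with Hdgfl2 and for Cdkn1a with the long non-coding RNA Dino. It also holds for Itgad with Cox6a2 and, among genes named below, for Tst with Mpst and for Agrp with Ctcf and Ripor1. Hif3a overlaps a tested gene on the opposite strand as well, and Agrp overlaps further tested genes on its own strand. Many other genes named here overlap a tested gene on the same or the opposite strand, and most of them are not marked in the text.

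Among the genes that fell, Gkn3, gastrokine 3, which marks arterial endothelium in brain, fell by 2.93 ± 0.24 on the log2 scale (SE, edgeR adjusted p = 1.95e-07). It lay at 0.887 to 1.95 CPM on chow (median 1.54) and 0.0888 to 0.356 CPM after fasting (median 0.186), low levels without overlap. Ly6g6f fell by 2.50, also from a low level, 0.844 to 1.32 CPM (median 1.02) to 0.103 to 0.338 CPM (median 0.177). Fgfrl1, a decoy-like receptor of fibroblast growth factors, had a smaller change with little spread, 12.7 to 14.4 CPM on chow (median 13.4) and 6.76 to 9.67 CPM after fasting (median 7.88), a log2 fold change of -0.76 ± 0.063. Nes, the intermediate filament nestin, fell by 0.75 in the same manner. Phkg1, the catalytic subunit of muscle phosphorylase kinase, fell by 0.49 ± 0.047 and overlaps Chchd2 and Sumf2, whose reads may be counted with it.

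Where log2 CPM averaged 1 or more and the groups did not overlap, the 15 genes with the largest decreases fell by 1.06 to 1.62. They held Gbp4, Gbp3 and Gbp9, interferon-inducible guanylate-binding proteins, with Tnfsf10, which codes for the death ligand TRAIL, and Bin2 and Fcrl2, genes of leukocytes and microglia. Opalin, Ugt8a, Padi2 and Bfsp2, mostly known from oligodendrocytes, were also among them. The remaining ones were Myoc, Cd248, Pipox, Tst and Mamdc2. Myoc, myocilin, lay at 14.8 to 41.4 CPM on chow (median 22.5) and 5.92 to 14.1 CPM after fasting (median 7.21). Tst, a mitochondrial sulfurtransferase, lay at 17.3 to 23.2 CPM on chow (median 20.1) and 7.24 to 14.1 CPM after fasting (median 8.97).

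**Figure D2:**
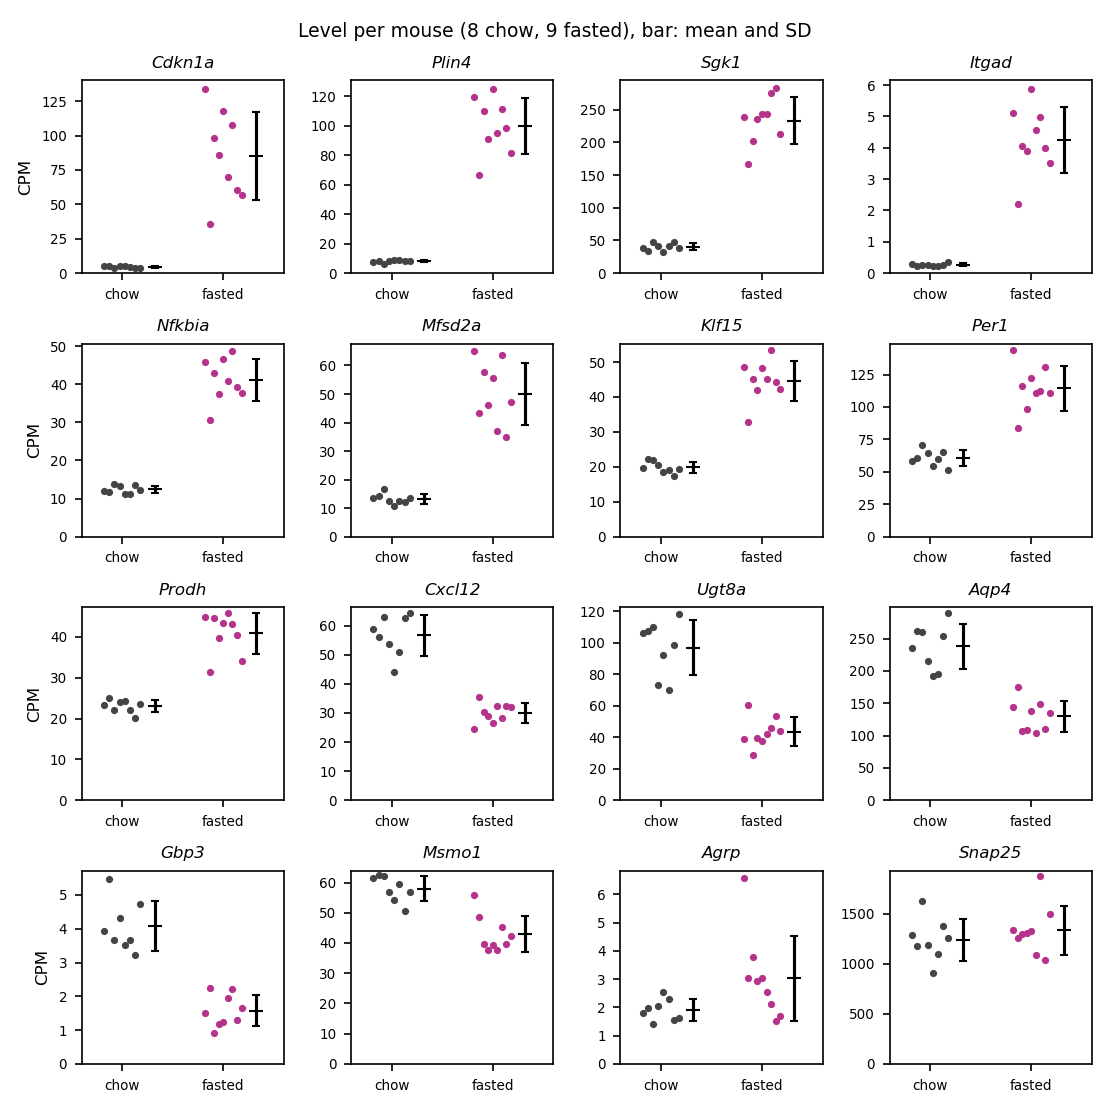
Level of 16 genes in CPM on a linear axis from 0, with 1 point per mouse (8 chow in grey, 9 fasted in magenta) and a bar for mean and SD. The groups do not overlap for genes such as Cdkn1a, Plin4, Sgk1, Mfsd2a, Cxcl12 and Aqp4, and they overlap for Msmo1, Agrp and Snap25.

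Genes known to respond to glucocorticoids were the list that rose most completely. This list was drawn up with earlier results of these data known and holds several of the largest increases named above. Its count therefore describes these data and is not an independent test. Of 30 such genes 28 rose, against 6.72% of all protein-coding genes. The median log2 fold change was 1.4 over the list against 0.0185 over all protein-coding genes. For 24 of the 28 the groups did not overlap, against 3.14% of all protein-coding genes in either direction. The count was 28 under each of the other analyses run and with any 1 mouse left out, while 1 member was called lower without mouse 1445, with limma and with 1 surrogate variable. Sgk1, a kinase induced by both corticosteroid receptors, lay at 32.8 to 48.1 CPM on chow (median 40.0) and 167.6 to 283 CPM after fasting (median 239), a log2 fold change of 2.53 ± 0.11 (edgeR adjusted p = 5.05e-11). Fkbp5, a co-chaperone that dampens the glucocorticoid receptor, lay at 18.8 to 34.9 CPM (median 26.6) and 44.6 to 140 CPM (median 99.8), a wide range within the fasted mice. Nfkbia, the inhibitor of NF-kappaB, had a tight range in both groups, 11.3 to 13.8 CPM (median 12.1) and 30.7 to 48.8 CPM (median 40.8), and rose by 1.73 ± 0.083.

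The list spans many functions. Arrdc2, an arrestin domain protein, rose by 2.46 on the log2 scale, Map3k6 by 2.27, Xdh, the xanthine oxidoreductase that makes uric acid, by 2.28 and Sult1a1, a sulfotransferase, by 2.05. Metabolic members were Angptl4, an inhibitor of lipoprotein lipase, at 1.89 and Pdk4, the kinase that shuts off pyruvate dehydrogenase, at 1.67. Ddit4, a brake on mTORC1, rose by 1.71, and the metallothioneins Mt1 and Mt2, which bind zinc and copper, by 1.27 and 1.41. The smaller changes were those of transcription factors and signalling genes, Klf15 at 1.17, Dusp1 at 1.00, Per1 at 0.92, Tsc22d3, the leucine zipper GILZ, at 0.89 and Klf9 at 0.75. Mertk, a receptor for the uptake of dying cells, rose by 1.14 and Errfi1, an inhibitor of the EGF receptor, by 1.19. The remaining members were Tgm2 at 0.11 (edgeR adjusted p = 0.697) and Ddit4l at -0.38 (edgeR adjusted p = 0.421). The glucocorticoid receptor itself, Nr3c1, fell slightly, from 112.6 to 179.3 CPM (median 125) to 85.7 to 131.3 CPM (median 104.1), a log2 fold change of -0.34 ± 0.10 (edgeR adjusted p = 0.0467). The mineralocorticoid receptor Nr3c2 had a log2 fold change of -0.15 ± 0.22 (edgeR adjusted p = 0.759).

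Promoters of 3 of these genes are shown because the list is defined by a transcription factor, and they hold, in turn, the list's only full glucocorticoid response element, the most E-boxes found in 1 of its promoters and a cAMP response element, which Errfi1 has as well. They come from RefSeq on GRCm38.p6, another build than that of the counts, and run from 250 bases before the transcription start to 50 after it, 5′ to 3′ on the gene's strand. Capitals mark the glucocorticoid response element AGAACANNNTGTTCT in Sgk1 (chr10:21993640-21993939, + strand, bases -189 to -175, 1 of 6 starts listed for the gene), the 3 E-boxes CACGTG in Klf15 (chr6:90462326-90462625, + strand) and the cAMP response element TGACGTCA in Dusp1 (chr17:26508423-26508722, - strand, bases -143 to -136), counting the first transcribed base as 1. Other copies of these motifs outside the capitals are in lower case.
Sgk1: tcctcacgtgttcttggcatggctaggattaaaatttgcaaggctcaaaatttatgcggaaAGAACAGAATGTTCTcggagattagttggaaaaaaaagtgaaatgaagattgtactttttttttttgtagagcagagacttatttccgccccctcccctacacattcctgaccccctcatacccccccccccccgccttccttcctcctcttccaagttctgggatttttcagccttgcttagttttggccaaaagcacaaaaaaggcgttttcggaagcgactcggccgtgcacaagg
Klf15: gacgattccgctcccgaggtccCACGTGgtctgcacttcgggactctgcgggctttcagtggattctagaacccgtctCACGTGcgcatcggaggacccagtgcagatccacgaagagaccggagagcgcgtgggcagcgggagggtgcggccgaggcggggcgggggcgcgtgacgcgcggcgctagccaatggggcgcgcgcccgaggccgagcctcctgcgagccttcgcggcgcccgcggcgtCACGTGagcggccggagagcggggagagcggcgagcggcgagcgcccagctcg
Dusp1: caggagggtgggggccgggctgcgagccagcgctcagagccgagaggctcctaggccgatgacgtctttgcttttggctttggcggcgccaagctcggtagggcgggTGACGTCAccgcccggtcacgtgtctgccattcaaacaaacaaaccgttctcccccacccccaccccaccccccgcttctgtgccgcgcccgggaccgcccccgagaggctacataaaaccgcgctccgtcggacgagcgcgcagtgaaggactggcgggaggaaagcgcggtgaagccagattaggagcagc

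Motifs were searched on both strands in the promoters of 12629 tested protein-coding genes and of 27025 genes in the table in all. The table holds 32851 promoters, and a gene was counted when any of its promoters held the motif, so the shares are of genes. The full element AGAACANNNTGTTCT was found for 1 of 885 genes that rose (0.113%), Sgk1, for 0 of 676 that fell and for 0 of 11068 not called. Among all 27025 genes in the table it was found for 3 (0.0111%). E-boxes CACGTG were found for 12.9% of the genes that rose, 7.69% of those that fell, 10.7% of those not called and 8.09% of all in the table. In the glucocorticoid list 23 genes had a promoter in the table, and 6 of them (26.1%) held an E-box. The letters AGAACA, which open the full element, were found for 4 of the 23 (17.4%). They were found for 15.8% of the genes that rose, 17.2% of those that fell, 15.5% of those not called and 21.3% of all in the table. For the cAMP response element TGACGTCA the shares were 3.62%, 1.92% and 3.19% of the genes that rose, fell and were not called (2.03% of all in the table). For the FoxO site GTAAACA they were 4.52%, 3.55% and 3.07% (4.05% of all), and for the GC box GGGCGG 62.7%, 58.1% and 63.9% (38.2% of all). These shares were not tested and describe windows of 300 bases, so distant elements lie outside them.

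**Figure D3:**
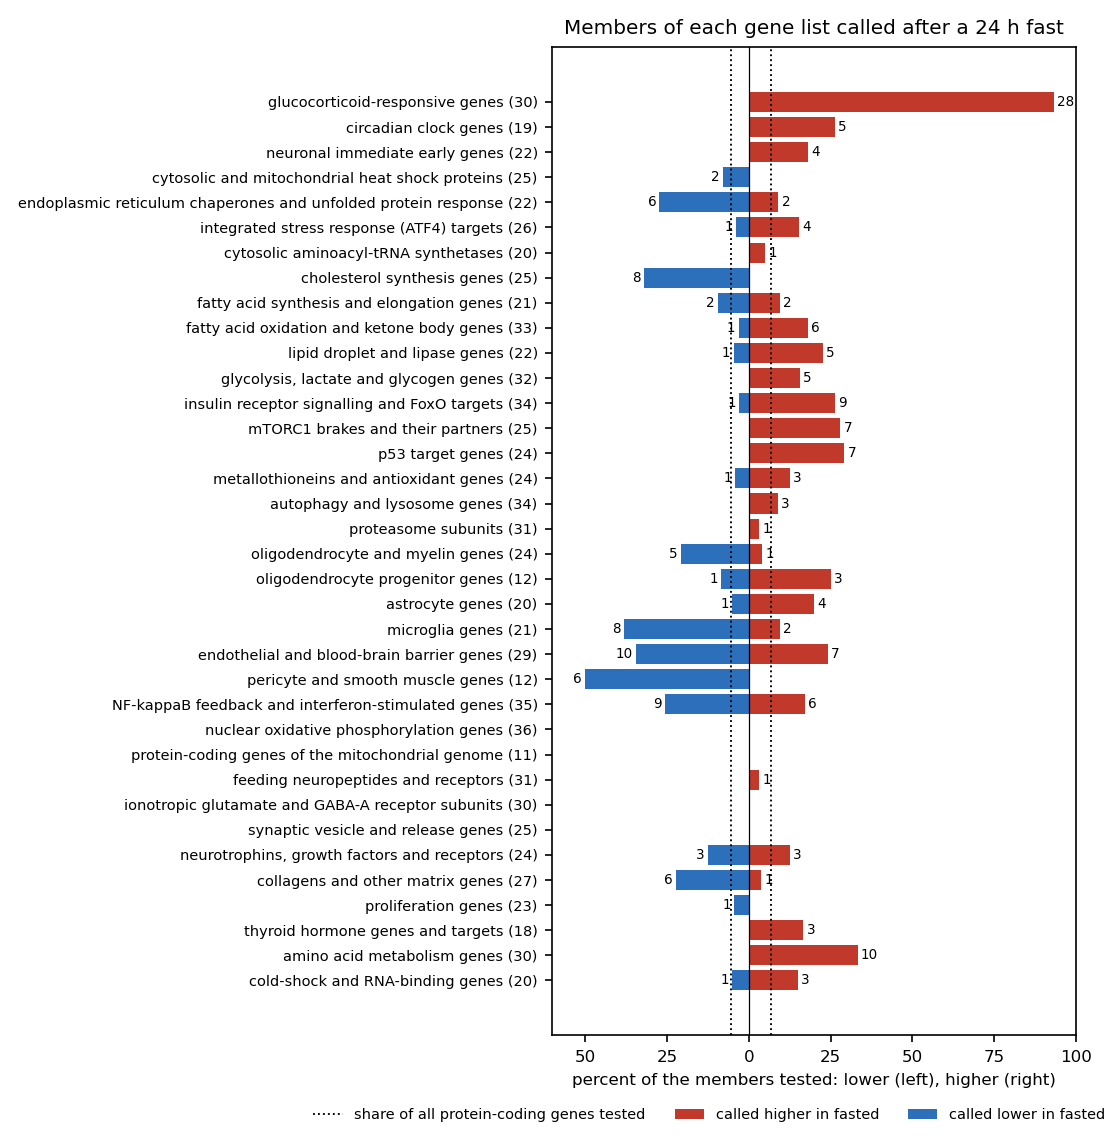
Share of each list's tested members that was called higher (red, to the right) or lower (blue, to the left) in fasted mice, in percent, with the count beside each bar and the number tested in parentheses. Dotted lines mark the shares over all protein-coding genes, 6.72% higher and 5.42% lower. The glucocorticoid list reaches 28 of 30, pericyte, microglia, endothelial and cholesterol lists extend furthest to the left, and 4 lists have no bar.

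Of 22 lipid droplet and lipase genes 5 rose and 1 fell, against 6.72% and 5.42% of all protein-coding genes, with a median log2 fold change of -0.0118. Plin4 and Angptl4 were joined by Pnpla2, the adipose triglyceride lipase ATGL that starts the breakdown of stored triglyceride, at 16.1 to 19.5 CPM on chow (median 17.5) and 39.1 to 102.4 CPM after fasting (median 69.8), a log2 fold change of 1.97 ± 0.16. Dgat2 and Fabp4 also rose, Fabp4 at levels below 0.3 CPM, and without mouse 1433 or without mouse 1453 the genes that rose were 3, and without mouse 1422 the genes that fell were 2. Fabp7, the fatty acid binding protein of astrocytes and radial glia, fell by 0.92, from 19.9 to 34.8 CPM (median 21.6) to 7.85 to 19.7 CPM (median 11.6). Of 33 genes of fatty acid oxidation and ketone bodies 6 rose and 1 fell (median 0.07). The mitochondrial uncoupling protein Ucp2 rose by 1.01, without overlap between the groups, while the ketone and lactate transporter Slc16a1 fell by 0.44. Cpt1a, which admits fatty acids to mitochondria, rose by 0.27. Without mouse 1422, 1424 or 1452 the count of 6 was 3, and without mouse 1422 the genes that fell were 2.

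Cholesterol synthesis genes were lower as far as they differed. Of 25 genes 8 fell, against 5.42% of all protein-coding genes, and the other 17 were not called. The median log2 fold change was -0.23 against 0.0185 over all protein-coding genes. Msmo1, a sterol demethylase, lay at 50.7 to 62.6 CPM on chow (median 58.2) and 37.7 to 55.99 CPM after fasting (median 39.8), and fell by 0.43 ± 0.076 (edgeR adjusted p = 8.98e-04). Dhcr7, which makes the last step, fell by 0.39, Hmgcs1, at the entry to the pathway, by 0.36 and Srebf2, the transcription factor of the pathway, by 0.26. These changes are small, and for each of the 8 genes the groups overlapped. The count was 3 without mouse 1431, 1441 or 1453, and 5 without mouse 1442 or 1451. In fatty acid synthesis, Elovl6 and Fads2, an elongase and a desaturase, fell by 0.43 and 0.34, and Acaca and Acacb, the acetyl-CoA carboxylases, rose by 0.24 and 0.78, 4 of 21 genes. Without mouse 1441 the genes that fell were 1 and not 2. Abca1, which exports cholesterol from cells, rose by 0.57 without overlap between the groups, from 90.9 to 108.3 CPM (median 96.1) to 127.4 to 176.4 CPM (median 142.7).

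Genes of glucose handling rose in part. Of 32 genes of glycolysis, lactate and glycogen 5 rose, against 6.72% of all protein-coding genes, and the others were not called (median 0.12). Slc2a1, the glucose transporter GLUT1 of the blood-brain barrier and astrocytes, lay at 58.1 to 77.9 CPM on chow (median 66.7) and 108.2 to 171 CPM after fasting (median 137.8), a log2 fold change of 1.00 ± 0.092 (edgeR adjusted p = 9.24e-07). Pdk4 and Pdk2, which inhibit pyruvate dehydrogenase, rose by 1.67 and 0.51, and Ppp1r3g, a glycogen-targeting subunit of protein phosphatase 1, by 1.10. Slc2a4, the insulin-regulated transporter GLUT4, rose by 1.26 from a low level, 1.53 to 2.17 CPM (median 1.78) to 2.67 to 7.28 CPM (median 4.51).

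Of 34 genes of insulin receptor signalling and FoxO targets 9 rose and 1 fell (median 0.07), against 6.72% and 5.42% of all protein-coding genes. The insulin receptor Insr rose by 0.24 ± 0.045, a small change with separate groups, 106.5 to 115.1 CPM on chow (median 114.1) and 120 to 151.2 CPM after fasting (median 130). Irs2, the receptor's main adaptor, rose by 0.42, Txnip, an inhibitor of glucose uptake, by 1.05, and Igfbp5, an IGF-binding protein, fell by 0.56. Without mouse 1445 the genes that fell were 2. Of 25 brakes of mTORC1 and their partners 7 rose, with Ddit4 first, then Castor1, an arginine sensor, at 0.87 and Sesn1, a leucine sensor, at 0.51. Of 24 p53 target genes 7 rose (median 0.22), among them Cdkn1a, the death receptor Fas at 1.23, Trp53inp1 at 0.92 and Mdm2, which degrades p53, at 0.28. Cdkn1a and Sesn1 each sit in more than 1 of these lists.

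Genes of amino acid metabolism rose where they differed. Of 30 genes 10 rose and the other 20 were not called (median 0.15). Prodh, proline dehydrogenase, which begins the breakdown of proline, lay at 20.2 to 24.9 CPM on chow (median 23.5) and 31.3 to 45.9 CPM after fasting (median 43.2), a log2 fold change of 0.82 ± 0.074 (edgeR adjusted p = 6.58e-07). Cbs and Cth, the enzymes that turn homocysteine into cysteine, rose by 0.73 and 0.49, and Mat2a, which makes S-adenosylmethionine, by 0.35. Glul, glutamine synthetase of astrocytes, lay at 1149 to 1606 CPM (median 1464) and 1731 to 3247 CPM (median 2156), without overlap. Among 26 targets of ATF4, the transcription factor of the integrated stress response, 4 rose and 1 fell (median 0.03). The shares over all protein-coding genes were 6.72% and 5.42%. The amino acid transporter Slc7a5 had 0.53, the serine synthesis gene Psat1 0.53 and the cystine transporter Slc7a11 -0.90. Without mouse 1445 the genes that rose were 8, and without mouse 1431, 1441 or 1453 those that fell were 2.

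Chaperones of the endoplasmic reticulum were lower in part. Of 22 genes 6 fell and 2 rose (median -0.073), against 5.42% and 6.72% of all protein-coding genes. Sdf2l1 lay at 5.83 to 7.50 CPM on chow (median 6.90) and 4.03 to 5.46 CPM after fasting (median 4.74), without overlap, and fell by 0.57 ± 0.076 (edgeR adjusted p = 6.88e-05). Creld2, Pdia4, a disulfide isomerase, and Calr, calreticulin, fell by 0.37, 0.35 and 0.28. Herpud1 and Selenos, of the degradation of misfolded proteins, rose by 0.32 and 0.21, and 1 of the pair was called when any of the mice 1422, 1424, 1432, 1433, 1435, 1442, 1443, 1444, 1451, 1452 or 1455 was left out. Among 25 cytosolic and mitochondrial heat shock genes Chordc1 and Cryab fell by 0.47 and 0.52 (1 of them without mouse 1432, 1442 or 1452). The cold-inducible RNA-binding proteins Cirbp and Rbm3 rose by 0.50 and 0.54, Rbm3 from 28.2 to 32.8 CPM (median 29.9) to 35.4 to 52.8 CPM (median 43.9), and the splicing factor Tra2a fell by 0.31 (2 genes of the list fell without mouse 1422). For these 3 genes the groups did not overlap. Body temperature is not among the values used here.

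Of 19 circadian clock genes 5 rose, with a list median of 0.0353. None was called lower by edgeR, with 4 lower at an unadjusted p under 0.05, but 4 were called lower with limma, 1 with DESeq2, 2 each without the low columns, with 1 surrogate variable and with clock time as covariate, 3 without mouse 1445 and 1 without mouse 1435 or 1441. Per1, which is also a glucocorticoid-responsive gene, lay at 51.3 to 70.4 CPM on chow (median 60.4) and 84.1 to 144.2 CPM after fasting (median 112.3). Cry1, a repressor of the clock, lay at 17.2 to 21.6 CPM (median 19.4) and 24.3 to 39.1 CPM (median 28.5), and rose by 0.62. Ciart, Bmal1 and Cry2 rose by 0.44, 0.28 and 0.28, with overlap between the groups. Clock times of death overlapped between the groups, with means of 611 minutes after midnight on chow and 619 in the fasted group. Among 22 immediate early genes, which mark neuronal activity, 4 rose (2 without mouse 1431), against 6.72% of all protein-coding genes. They were Dusp1, Fos at 0.67 (edgeR adjusted p = 0.0206), Btg2 at 0.46 and Jund at 0.26. Arc, an activity marker of synapses, had a log2 fold change of 0.031 ± 0.25.

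By count, the largest number of genes that fell among the cell type lists was endothelial, in the longest of these lists. As a share, more fell among pericyte and smooth muscle genes (6 of 12) and microglia genes (8 of 21). Of 29 genes of endothelium and blood-brain barrier 10 fell and 7 rose, against 5.42% and 6.72% of all protein-coding genes. The median of the list was 0.0156. Among the genes that fell were Cxcl12, a chemokine, the receptors Tie1, Tek and Kdr, Itm2a, the junction genes Cdh5 and Cldn5, and the transporter Slc22a8. Cxcl12 (ENSMUSG00000061353, GRCm39 chr6:117144945-117158328) lay at 43.98 to 64.3 CPM on chow (median 57.5) and 24.5 to 35.4 CPM after fasting (median 30.2), a log2 fold change of -0.92 ± 0.081 (edgeR adjusted p = 5.68e-07). Tek, the angiopoietin receptor, lay at 15.2 to 26.6 CPM (median 19.5) and 9.60 to 14.3 CPM (median 11.1), and Cldn5, the main claudin of the barrier, fell by 0.56 with overlap. The genes that rose were Mfsd2a, which carries omega-3 lipids into the brain, Slc2a1, Slc7a5, Abcg2, Fas, Lcn2 and Lrg1. Mfsd2a lay at 10.8 to 16.9 CPM on chow (median 13.0) and 35.1 to 65.0 CPM after fasting (median 47.3), a log2 fold change of 1.92 ± 0.13 (edgeR adjusted p = 1.38e-08). Lcn2, lipocalin 2, rose by 3.04 at a low level, 0.0859 to 0.332 CPM (median 0.161) to 0.454 to 2.56 CPM (median 1.34).

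The summed level of the endothelial list was 790 to 1084 CPM on chow (median 931) and 780 to 1006 CPM after fasting (median 916), with near-complete overlap. In bulk tissue fewer cells of a type and less RNA per cell cannot be told apart. Sox7, Sox17 and Sox18, transcription factors of endothelium chosen after their values were seen, fell by 0.91, 0.72 and 0.76. Of 12 pericyte and smooth muscle genes 6 fell (median -0.32), led by Anpep at -1.09, against 5.42% of all protein-coding genes. But the count was 1 to 3 when any of the mice 1422, 1431, 1432, 1433, 1434, 1442, 1443, 1451 or 1453 was left out and 2 with DESeq2 size factors. The summed pericyte level was 260 to 382 CPM on chow (median 307) and 195 to 291 CPM after fasting (median 250).

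Of 27 collagens and other matrix genes 6 fell and 1 rose (median -0.31), against 5.42% and 6.72% of all protein-coding genes. Serpinh1, the collagen chaperone HSP47, lay at 16.0 to 24.3 CPM on chow (median 18.6) and 8.08 to 12.6 CPM after fasting (median 10.2), and fell by 0.94 ± 0.10 (edgeR adjusted p = 8.29e-06). Col3a1, Col1a1 and Lum, fibrous collagens and a proteoglycan, fell by 1.48, 0.99 and 1.05, and Lama4, a laminin of vessels, by 0.62. Col4a1, a basement membrane collagen, rose by 0.32 and was not called when any of 13 mice was left out, the exceptions being mice 1425, 1435, 1445 and 1455. Col3a1, Col1a1 and Lum are also meningeal fibroblast markers, of which 4 of 13 fell. Their summed level was 310 to 1757 CPM on chow (median 762) and 637 to 1276 CPM after fasting (median 967), a higher median with lower collagens. The part of meningeal tissue in these decreases was not tested.

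**Figure D4:**
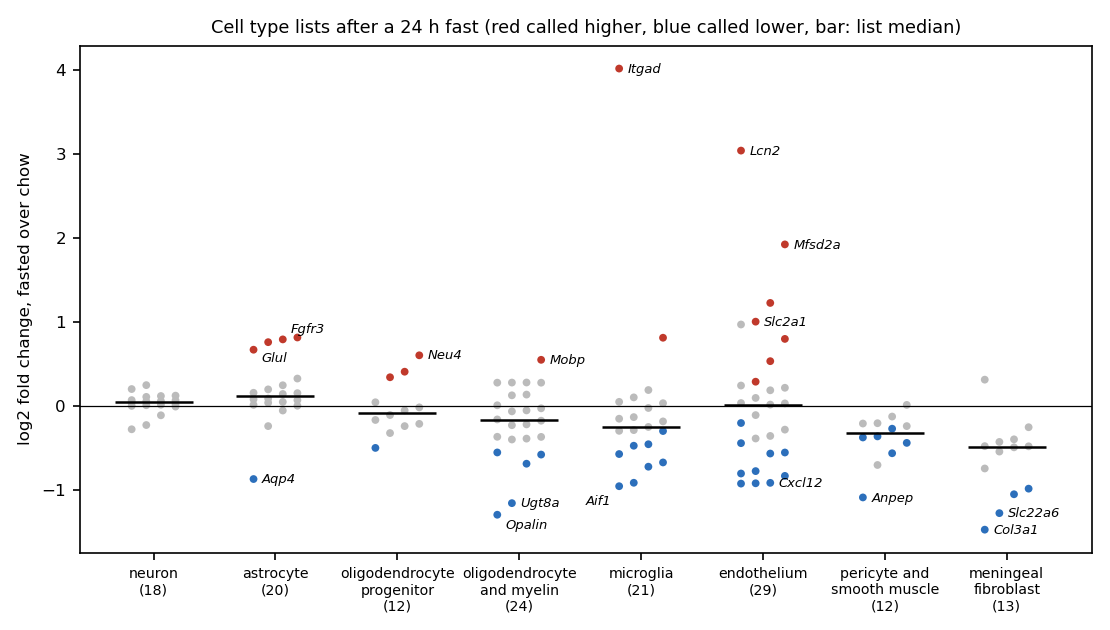
Log2 fold change, fasted over chow, of the genes of 8 cell type lists, 1 point per gene, red where called higher, blue where called lower and grey otherwise, with a bar at the list median and the number of genes in parentheses. Microglia, pericyte and meningeal lists have medians below 0, and the endothelial list holds red and blue points around a median of 0.0156.

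Of 20 astrocyte genes 4 rose and 1 fell (median 0.12), where 6.72% of all protein-coding genes rose and 5.42% fell. Fgfr3, a growth factor receptor, lay at 93.3 to 125.6 CPM on chow and 134.2 to 230 CPM after fasting (median 196) and rose by 0.79, with Agt, angiotensinogen, at 0.82, the connexin Gjb6 at 0.76 and Glul at 0.67. Aqp4, the water channel of astrocyte endfeet, went the other way, 192 to 289 CPM (median 245) to 103.7 to 174.8 CPM (median 135.5), a log2 fold change of -0.87 ± 0.11 (edgeR adjusted p = 3.83e-05). Without mouse 1425 or 1455 another astrocyte gene was called lower. Gfap, the filament that rises in reactive astrocytes, had a log2 fold change of 0.0021 ± 0.15. The summed astrocyte level was 7548 to 9583 CPM on chow (median 8904) and 8876 to 12093 CPM after fasting (median 10366).

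Of 24 oligodendrocyte and myelin genes 5 fell and 1 rose (median -0.17), against 5.42% and 6.72% of all protein-coding genes. Ugt8a (ENSMUSG00000032854, GRCm39 chr3:125654459-125732736), which makes the myelin lipid galactosylceramide, lay at 69.8 to 118.1 CPM on chow (median 102.4) and 29.0 to 60.4 CPM after fasting (median 41.9), a log2 fold change of -1.16 ± 0.13 (edgeR adjusted p = 1.08e-05). Opalin, a membrane protein of oligodendrocytes, fell by 1.30, Fa2h, which hydroxylates myelin fatty acids, by 0.69, the iron carrier Trf by 0.58 and Gpr37 by 0.55. Mobp, a structural myelin protein, rose by 0.55, and Mbp, myelin basic protein, had a log2 fold change of 0.28 ± 0.13 (edgeR adjusted p = 0.208). Without mouse 1425 the genes that fell were 8, and without mouse 1433 those that rose were 2. The summed level of the list was 6103 to 9242 CPM on chow (median 8011) and 6090 to 9734 CPM after fasting (median 8776). Of 12 genes of oligodendrocyte progenitors, Neu4, Vcan and Pdgfra rose by 0.60, 0.41 and 0.34 without overlap between the groups, and Sox6 fell by 0.50 (2 genes fell without mouse 1425).

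Of 22 microglia genes listed, 21 were matched by symbol and tested. Of these 8 fell, 2 rose and the other 11 were not called, while 5.42% of all protein-coding genes fell and 6.72% rose. The list median was -0.25 against 0.0185 over all protein-coding genes. Fcrl2, named above, fell by 1.11 and is not counted among these genes. P2ry12, the purine receptor of resting microglia, lay at 14.4 to 20.6 CPM on chow (median 16.9) and 8.27 to 14.0 CPM after fasting (median 9.18), and fell by 0.67 ± 0.12 (edgeR adjusted p = 0.00118). Aif1, which codes for the marker IBA1, fell by 0.96, the integrin Itgam by 0.92 and the fractalkine receptor Cx3cr1 by 0.72. Itgad and Cd14, an endotoxin co-receptor, were the pair that rose, Cd14 by 0.81. The summed level of the list was 265 to 333 CPM on chow (median 286) and 211 to 315 CPM after fasting (median 260).

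Of 35 genes of NF-kappaB feedback and interferon response 9 fell, 6 rose and the other 20 were not called (median -0.12). Over all protein-coding genes 5.42% fell and 6.72% rose. Genes that fell included Gbp3, the antiviral genes Ifit1 and Oas1a, the ubiquitin-like modifier Isg15 and the transcription factor Irf7, with log2 fold changes of -1.37 for Gbp3 and -0.52 for Irf7. Ifit1 lay at 2.94 to 4.85 CPM on chow (median 3.63) and 1.59 to 2.87 CPM after fasting (median 1.99). Among the 6 that rose, Nfkbia changed most beyond its spread, and Osmr, the oncostatin M receptor, rose by 0.66. Ccl2, a chemokine, rose by 3.81 at 0 to 0.115 CPM on chow (median 0.0695) and 0.0487 to 3.36 CPM after fasting (median 0.258), so the groups overlap and the change rests on few reads. Of 9 guanylate-binding protein genes, a family picked after its values were seen, 6 fell (median -1.09), Gbp4 by 1.62 from 2.85 to 4.89 CPM (median 3.19) to 0.641 to 2.47 CPM (median 0.779). Gbp4, Gbp8 and Gbp9 overlap on 1 strand of chromosome 5, and members of the family may share reads.

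Neuronal genes gave few calls. Over all protein-coding genes 6.72% rose and 5.42% fell, so 0 calls in lists this short say little about neurons. None of 18 neuron markers was called by edgeR, with 1 lower at an unadjusted p under 0.05, 0 called by DESeq2 and 1 each by limma and by a fit with 1 surrogate variable. Snap25, of the release machinery, lay at 907 to 1620 CPM on chow (median 1223) and 1037 to 1877 CPM after fasting (median 1304). Of 30 subunits of ionotropic glutamate and GABA-A receptors edgeR and DESeq2 called 0, limma 2 and a fit with 1 surrogate variable 4, with 1 higher and 3 lower at an unadjusted p under 0.05. Of 25 genes of synaptic vesicles and release, edgeR, DESeq2 and limma called 0, with 0 at an unadjusted p under 0.05. Of 36 nuclear genes of oxidative phosphorylation the same 3 tools called 0, with 1 higher at an unadjusted p under 0.05 and log2 fold changes between -0.011 and 0.17. For the 11 genes of the mitochondrial genome tested they also called 0, with 3 higher at an unadjusted p under 0.05. Families of voltage-gated calcium and sodium channels (39 genes) and of serotonin, dopamine and adrenergic receptors (28 genes), picked after their values were seen, had 0 calls by edgeR and DESeq2, 1 each by limma, and 3 higher each at an unadjusted p under 0.05. Of 88 potassium channel subunits edgeR called 3 higher (5 without mouse 1435 or 1445) and 3 lower. DESeq2 and limma called 9 of them each.

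Of 31 feeding neuropeptides and receptors edgeR called 1, Insr (3 genes rose without mouse 1445, and 1 fell without mouse 1435 or 1444). DESeq2 and limma called 3 each, and a fit with 1 surrogate variable called 2. At an unadjusted p under 0.05 in edgeR, 5 were higher and 1 was lower. Per the labels, the hypothalamus library failed the alignment criterion in chow mice 1422, 1441 and 1451 and in fasted mice 1435, 1445 and 1455. Values of genes made mostly in that region may thus rest on fewer mice. Agrp, the peptide of hunger neurons, lay at 1.40 to 2.55 CPM on chow (median 1.90) and 1.51 to 6.57 CPM after fasting (median 2.94), a log2 fold change of 0.67 ± 0.24 (edgeR adjusted p = 0.0871). Npy, made by the same neurons and many others, had 0.49 ± 0.23 (edgeR adjusted p = 0.216), and Pomc, of satiety neurons, lay at 1.75 to 68.9 CPM on chow (median 13.3) and 5.18 to 36.7 CPM after fasting (median 12.1). Pomc is also in the list of pituitary markers, whose sum ran from 9.88 to 1108 CPM on chow and from 13.1 to 326 CPM after fasting. The part of pituitary tissue in the Pomc values was not tested. The summed hypothalamus markers, a list that includes Agrp, Pomc, Hcrt, Pmch and Trh, lay at 12.7 to 222 CPM on chow and 36.0 to 332 CPM after fasting. Of the 14 tested in that list edgeR called 0 and DESeq2 called 1. Crh, the hormone that starts the stress axis, had a log2 fold change of 0.90 ± 0.34 (edgeR adjusted p = 0.113), Hcrt, orexin, 0.93 ± 0.68, Pmch 0.50 ± 0.51, Trh 0.34 ± 0.56 and Cartpt -0.029 ± 0.35. The receptors Ghsr, Lepr and Mc4r had 0.84 ± 0.47, -0.025 ± 0.28 and -0.039 ± 0.15. Markers of hippocampus, colliculi, thalamus and zona incerta, cortex, choroid plexus, pituitary and blood had 0 called members each by edgeR, with at most 2 members of a list at an unadjusted p under 0.05, and DESeq2 called 1 choroid plexus marker. Ttr of the choroid plexus ran from 14.4 to 1440 CPM on chow (median 40.7) and from 10.5 to 3414 CPM after fasting (median 26.7). Bdnf had a log2 fold change of -0.22 ± 0.25, Dcx of newborn neurons -0.17 ± 0.10 and Mki67 of dividing cells 0.28 ± 0.40.

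Across gene families, 40 of 341 solute carriers rose and 25 fell, and 30 of 381 genes named Zfp, which code for zinc finger proteins, rose and 14 fell (8 without mouse 1442 or 1453, 9 without mouse 1431 or 1452, 21 without mouse 1435), against 6.72% and 5.42% of all protein-coding genes. Among 16 Kruppel-like factors Klf15, Klf9, Klf2 and Klf13 rose, and Klf12 and Klf3 fell, a pair of which 0 to 1 was called when any of the mice 1422, 1431, 1433, 1434, 1441, 1442, 1445, 1451 or 1453 was left out. Zfp36, which destabilises cytokine mRNAs, rose by 1.21 without overlap between the groups, 2.59 to 3.57 CPM (median 3.04) to 5.01 to 9.32 CPM (median 7.42). Of 82 cytosolic ribosomal protein genes Rpl3l, a muscle form, was called. Thyroid hormone genes rose in 3 of 18, Dio2, the enzyme that activates thyroid hormone in tanycytes and astrocytes, by 0.85, Hr, a corepressor, by 1.15 and Klf9. Ccnd1, cyclin D1, fell by 0.51 without overlap between the groups and was the gene called among 23 proliferation genes, of which 2 were called lower without mouse 1425, 1441 or 1453 and 3 without mouse 1445. Usp2, a ubiquitin protease under clock control, rose by 0.44.

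The 16 h study gives the same contrast after a shorter fast, in other mice and with other controls. The 16 h contrast was tested in a joint fit of the chow and fasted groups of both studies. The spread of a gene was thus estimated over all these mice, and the 16 h mice were not fitted alone. Per the paper, mice of the 16 h study were housed in pairs and the diet was assigned by cage. Neither this contrast nor the test of the interaction had a term for cage, so mice that shared a cage were counted as independent. No gene of 30530 was called (edgeR, 6 mice against 6), the lowest adjusted p was 0.86, and 1194 genes had an unadjusted p under 0.05. With regions kept apart, the paper lists genes that differed after the 16 h fast in every region but the inferior colliculus. The difference between the 24 h and the 16 h effect, tested as an interaction in a joint fit, passed for 372 of 16857 protein-coding genes (2.21%), 219 with a higher and the rest with a lower value at 24 h, and 367 of them were also called at 24 h. Of the genes that rose at 24 h, 917 of 1111 had a positive log2 fold change at 16 h, and of those that fell 690 of 897 had a negative one, while 65.6% of all protein-coding genes had the same sign. The median 16 h log2 fold change was 0.070 and -0.068 in these sets.

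In the glucocorticoid list the 16 h median was 0.22 against 1.4 at 24 h. The test of the difference passed for 22 of its 30 genes, against 2.21% of all protein-coding genes. Cdkn1a had 0.32 ± 0.22 at 16 h, a difference of 3.92 (edgeR adjusted p of the interaction 6.52e-09). Plin4 had 0.74 ± 0.19, Hif3a 1.00 ± 0.21 and Sgk1 0.54 ± 0.14 at 16 h, all smaller than at 24 h. Arl4d, Arrdc2 and Nfkbia differed by 2.12, 2.09 and 1.54. Among genes that fell, Cd248, Itm2a, Tek, Cxcl12 and Phkg1 had the smallest p values, with differences of -1.19, -0.998, -0.83, -0.79 and -0.49 and 16 h values between -0.14 and 0.071. In the endothelial list 13 of 29 genes passed the test of the difference, against 2.21% of all protein-coding genes. Cirbp had 0.29 ± 0.092 at 16 h and 0.50 ± 0.077 at 24 h, a difference of 0.20 (edgeR adjusted p of the interaction 0.622). The studies also differed in housing (pairs against single mice), clock hours of the fast, sequencing run, hemisphere and 1 region (prefrontal cortex in place of zona incerta), which cannot be told apart from the length of the fast.

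**Figure D5:**
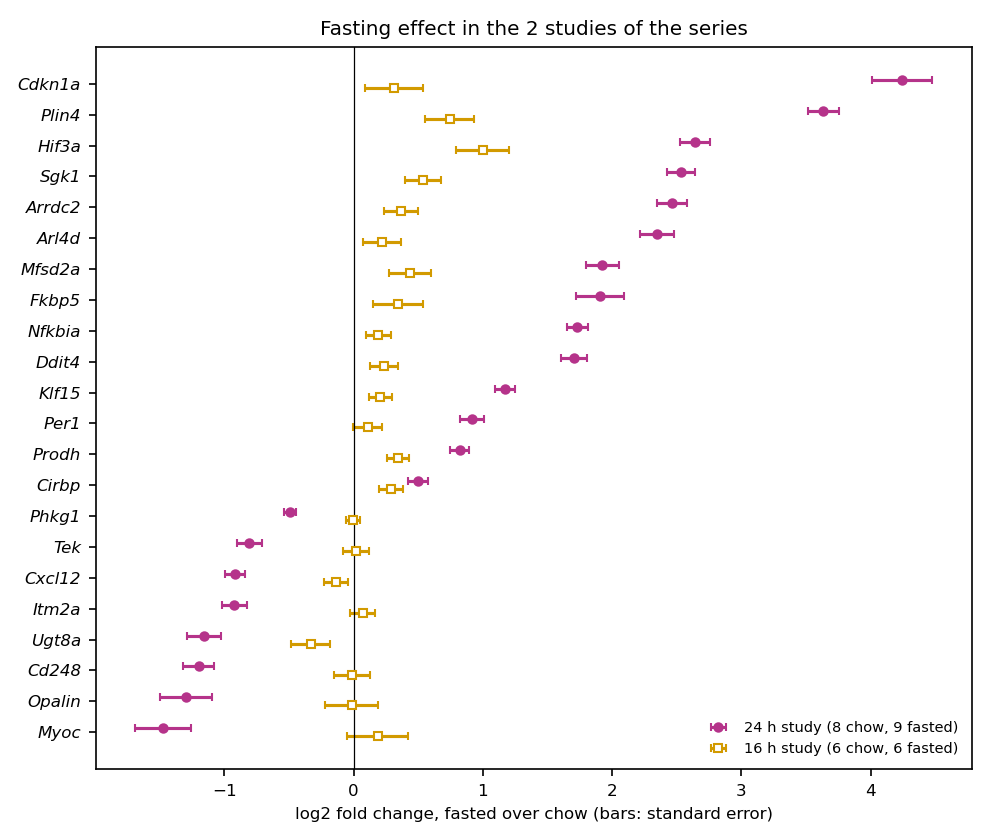
Log2 fold change, fasted over chow, with its standard error for 22 genes in the 24 h study (filled circles, 8 chow and 9 fasted mice) and the 16 h study (open squares, 6 and 6). Most 16 h values lie near 0, between -0.33 and 1.00, while Cirbp lies closest between the studies among the genes that rose.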

How the data were processed

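Per the labels and the study's methods, RNA was extracted from each dissected region, rRNA was depleted, and paired reads were aligned by the authors with STAR 2.7.3a to GRCm39 after bcl2fastq 2.20.0. The deposited values are raw read counts per gene, whole numbers with no normalization. The strand setting and the annotation release behind them are not given in the sources used here. Gene types came from the reference annotation of the same build. Columns that carry the heading of 1 mouse were added up, since headings name no region. Columns of the HFD mice (30) were not used. Counts were tested by the quasi-likelihood test of edgeR 4.0.16 under R 4.3.3 (low genes dropped by filterByExpr, TMM scaling, adjusted p under 0.05 over all genes tested), and the 24 h and 16 h effects with an interaction term. CPM values are TMM-scaled. Body weight was compared with a two-sided exact permutation test. On simulated counts for the 24 h comparison, edgeR recovered 67 of 100 genes changed 1.5-fold and 93 of 100 changed 2-fold, with 6 false calls among 28535 genes. Counts per mouse ranged from 57962237 to 161577364, and p-values measure the spread between mice. Alternatives were DESeq2 1.42.0, limma 3.58.1, 1 surrogate variable (sva 3.50.0), DESeq2 size factors, no filter on low counts, clock time or mitochondrial share as covariate, the mitochondrial genome left out, low columns left out, other sets of mice, each mouse left out and, added after seeing the data, the first 3 digits of the animal number as a block.

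The comparison, its gene lists (36 pathway, 12 marker and 26 family lists) and tests were chosen with earlier results of these data known, and 10 family lists after their values were seen. Genes named were, per direction, the 15 with the largest change among those called whose log2 CPM averaged 1 or more and whose groups did not overlap, the 8 with the smallest p, up to 4 called members of each list and the 5 with the smallest interaction p, with a fixed set of feeding, stress and marker genes. Abcg2, Bmal1, Cdh5, Cth, Cx3cr1, Ddit4l, Dgat2, Errfi1, Fa2h, Kdr, Lrg1, Mdm2, Mertk, Oas1a, Slc22a8, Snap25, Sox7, Sox17, Sox18, Tgm2 and Tsc22d3 fall outside this rule and were named after their values were seen. Some results are not reported here.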

Additional observations from a re-analysis of the deposited data

Results flagged for a closer look

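In 30 of 374 groups of values, 1 mouse lay far from the others of its group by Dixon's criterion, which chance meets in about 1 of 20 groups. On chow these values, in CPM, were 19.6 for Abcg2, 64.7 for Agt, 13.2 for Anpep, 4.31 for Bin2, 19.9 for Dusp1, 4.89 for Gbp4, 178.4 for Igfbp5, 6.28 for Map3k6, 41.4 for Myoc, 35.1 for Slc22a8, 19.3 for Tie1 and 1440 for Ttr. In fasted mice they were 6.57 for Agrp, 5.05 for Cth, 12.0 for Ddit4l, 78.8 for Dgat2, 0.274 for Fabp4, 104.5 for Gpr37, 151.2 for Insr, 19.9 for Lepr, 2.68 for Mc4r, 12.3 for Mki67, 92.2 for Pdgfra, 39.4 for Sesn1, 7.28 for Slc2a4, 3.36 for Tnfsf10, 336 for Trf, 14.1 for Tst, 3414 for Ttr and 57.7 for Vcan.

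The fasting effect differed between the 24 h and the 16 h study, by the test of the interaction, for 372 protein-coding genes. The 24 h minus 16 h difference in log2 fold change was 3.92 for Cdkn1a, 2.88 for Plin4, 2.12 for Arl4d, 2.09 for Arrdc2 and 1.54 for Nfkbia, and -1.19 for Cd248, -0.998 for Itm2a, -0.828 for Tek, -0.787 for Cxcl12 and -0.49 for Phkg1.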

How the results depend on the processing

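The number of protein-coding genes called higher ranged from 969 with no filter on low counts to 1521 with DESeq2, and of those called lower from 730 with no filter to 1193 with limma. The share of calls that were higher was 55.3%, against 49% with limma and 62.2% with the mitochondrial genome left out. With 1 mouse left out, all called genes ranged from 2193 (without mouse 1451) to 3218 (without mouse 1445). Of the called genes named here, 17 lost the call under at least 1 of the alternatives run, the others kept it, and 0 changed direction. Values that changed sign belonged to genes that were not called, and the cause was not tested. With limma the log2 fold change was -0.159 for Agrp, -0.35 for Arc, 0.066 for Cartpt, -0.228 for Gfap, -0.394 for Mki67 and -0.31 for Ttr. With 1 surrogate variable it was -0.11 for Arc and -0.133 for Mki67, with clock time as covariate -0.069 for Arc and -0.311 for Ttr, with DESeq2 -0.753 for Ttr and with the mitochondrial share as covariate -0.039 for Gfap. With low columns left out it was 0.028 for Pomc and -0.199 for Gfap, and also without mouse 1455 it was 0.019 for Cartpt and 0.00596 for Lepr. With 1 mouse left out the values ran across 0, from -0.116 to 0.191 for Arc, from -0.212 to 0.175 for Cartpt, from -0.055 to 0.0655 for Gfap, from -0.25 to 0.112 for Lepr, from -0.11 to 0.0631 for Mc4r, from -0.161 to 0.417 for Mki67, from -0.231 to 0.014 for Nr3c2, from -0.56 to 0.263 for Pomc and from -2.78 to 2.73 for Ttr, where mouse 1445 turned Mki67, mouse 1422 Nr3c2, mouse 1432 Pomc and mouse 1453 Ttr. The body weight difference ranged from -20.37 to -19.72 with 1 mouse left out, an alternative chosen after seeing the data. No paired analysis was possible because the groups share no replicate numbers. The first 3 digits of the animal number recur in both groups, and the labels do not say what they stand for. With these digits as a block, an alternative also chosen after seeing the data, 849 protein-coding genes were called higher and 735 lower, 1556 of them among the 2008 called without it. Of the genes named here Col4a1, Cpt1a, Herpud1, Jund, Klf3, Lrg1, Nr3c1 and Selenos lost the call, and values of genes not called turned to -0.0249 for Gfap, 0.0949 for Pomc, -0.0027 for Trh and -1.025 for Ttr. Genes of 1 region are limited by the uneven depth of the regions in a sum.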
